A study of Homo sapiens with 6 samples.

Results

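The genes described here encode proteins of the mitochondrial ribosome. They were chosen by symbol, MRPL for the large subunit and MRPS for the small subunit followed by a number, and 74 of the 18132 genes with a probe set of a single gene symbol met that rule. A probe set is the group of short probes on an Affymetrix array that together give 1 value for a transcript. All 74 genes were bright enough to test, of 12221 such genes in all. The mean log2 value of a member over the 6 arrays ran from 7.10 to 11.7. MRPL23, MRPL53 and MRPS24 lay only on probe sets that also carry another symbol and were not analysed here. The gene once called MRPS36 is listed as KGD4, a subunit of the oxoglutarate dehydrogenase complex, and is given separately.

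Mitochondria keep their own ribosome, which makes the membrane subunits of the respiratory chain and ATP synthase that mitochondrial DNA encodes. Its RNAs are transcribed inside the organelle, whereas all its proteins are encoded in the nucleus, made in the cytosol and imported. Some of these proteins have counterparts in bacterial ribosomes and others are found only in mitochondria. The retinal pigment epithelium, a layer that supports the photoreceptors, relies heavily on mitochondrial respiration and is exposed to oxidants throughout life.

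RNA came from ARPE-19, an established human cell line of retinal pigment epithelial origin. By the protocol, cells of both groups were transfected with GFP, and 48 h later they received either no enzyme (0 h, 3 arrays) or 10 mU/ml glucose oxidase for 3 h (3 h, 3 arrays). Glucose oxidase releases hydrogen peroxide as it oxidises the glucose in the medium. The descriptions of the 3 h samples name a different construct, GFP with alpha satellite (a centromeric repeat), so treatment and transfected construct cannot be told apart where those descriptions hold. The labels list no cells kept for a further 3 h without enzyme, and do not say that the replicates were separate cultures, so p-values may measure technical spread only. These are bulk samples: fewer cells of a kind and less RNA per cell cannot be told apart.

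Epithelial keratins were abundant, with log2 12.2 for KRT18 and 11.5 for KRT8 at 0 h. RPE65, RLBP1 and MERTK, listed as markers of pigment epithelium, lay below the floor of log2 4.64. The other 11 of the 14 pigment epithelial markers had a mean over the 6 arrays above it. Among them, OTX2 read 8.37, MITF 8.15, PMEL 5.70 and TYR 5.31 in the mean at 0 h. The summed log2 level of the 14 pigment epithelial markers was 96.5 to 97.3 at 0 h and 97.3 to 98.7 at 3 h. Of the 11 above the floor, 5 rose and 2 fell, where 20.6% of all genes tested rose and 30.8% fell. The summed level of 5 blood markers was 18.6 to 19.7 at 0 h and 19.3 to 20.1 at 3 h, and that of 4 endothelial markers 19.1 to 19.4 and 19.2 to 19.7. PTPRC, CD14, LYZ and CDH5 lay below the floor, and limma called 0 of the 5 others (2 at an unadjusted p under 0.05). The summed level of 5 photoreceptor and neuronal markers was 33.1 to 33.2 at 0 h and 32.5 to 32.8 at 3 h, and that of 6 mesenchymal markers was 40.5 to 40.7 and 41.7 to 41.9. Among these, PDE6B and SYT1 fell by 0.36 and 0.22 and PDGFRB rose by 0.59, while COL1A2 and COL3A1 lay below the floor. Control features also moved with the groups. All 24 poly-A spike probe sets, which follow RNA added before labelling, lay below all 0 h values at 3 h, with a median change of -0.60 on the log2 scale. The same held for 17 of 18 hybridization spike sets (median -0.31). The 5′ minus 3′ log2 difference of beta-actin went from -2.06 ± 0.07 to -1.20 ± 0.06 (SD, n = 3). The part of marker, spike and actin differences in the results on ribosomal protein genes was not tested. Arrays of 1 group correlated at 0.996 to 0.998 over the genes tested, and arrays of different groups at 0.979 to 0.983.

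After the exposure, most mitochondrial ribosomal protein genes were modestly lower. Of the 74, 47 fell (63.5%) and 4 rose (5.41%), while 23 did not pass the test. Among all genes tested, 30.8% fell, 20.6% rose and 51.3% passed in either direction. Among the members, decreases made up a share above that background and increases a share below it. The median log2 change (3 h minus 0 h) was -0.24 for the members and -0.04 for all genes. A call here is an adjusted p under 0.05 in limma, a linear model fitted to all genes with Benjamini-Hochberg adjustment over them. Because the members are bright, the same shares were taken over the 6424 genes at least as bright as the dimmest member. Of these, 36.5% fell and 23.6% rose, with a median of -0.07.

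The change was small for each gene and similar on each array. Called decreases ran from 1.12-fold to 1.66-fold, with a median of 1.27-fold, and only 1 of them reached 1.5-fold. The median SD of a member was 0.04 at 0 h and 0.06 at 3 h, against 0.05 and 0.07 for the genes at least as bright and 0.06 and 0.09 for all genes. Relative to its own 0 h mean, the median member stood at -0.25, -0.22 and -0.24 on the 3 h arrays, where the median of all genes stood at -0.03, -0.04 and -0.05. Of the 74 members, 61, 61 and 64 lay below their 0 h mean on these arrays. The 3 h values all lay below the 0 h values for 53 members and all above for 6, and they overlapped for 15. Over all genes, the groups did not overlap in 60.5%, with all 3 h arrays lower in 35.7% and all higher in 24.8%.

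**Figure D1:**
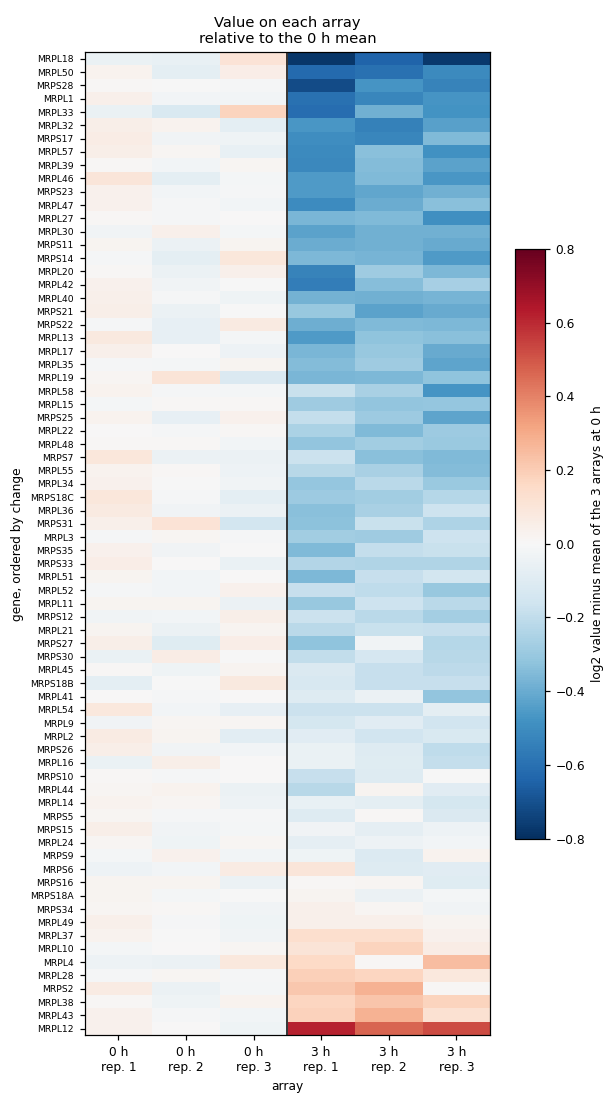
Log2 value of each of the 74 genes on each of the 6 arrays, minus the mean of the 3 arrays at 0 h (colour, blue lower and red higher), with genes in rows ordered by their change. Blue fills the upper rows of all 3 arrays at 3 h, and MRPL12, in the last row, is red on all 3.

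**Figure D2:**
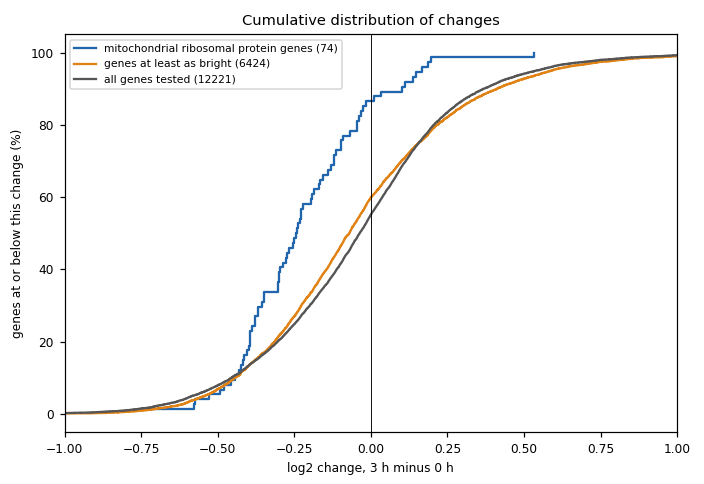
Percentage of genes (vertical axis) at or below each log2 change, 3 h minus 0 h (horizontal axis, drawn from -1 to 1), for the 74 members, the 6424 genes at least as bright and all 12221 genes tested. The curve of the members lies to the left over its middle, with a median of -0.24 against -0.07 and -0.04, while its lower end meets the other curves.

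Both subunits held decreases. Among all genes tested, for comparison, 30.8% fell and 20.6% rose. Of 49 large-subunit genes, 32 fell (65.3%) and 4 rose (8.16%), with a median log2 change of -0.25. Of 25 small-subunit genes, 15 fell (60%) and 0 rose in limma (0 also at an unadjusted p under 0.05), with a median of -0.24. With limma's trend and robust moderation, or without replicate 3 of the 3 h arrays, 1 small-subunit gene, MRPS2, was called higher; its change was 0.17 (adjusted p = 0.101 as reported here). MRPS30 and MRPS18A are counted with the large subunit, where their proteins (mL65 and mL66) reside. The 44 genes with a bacterial counterpart and the 30 found only in mitochondria gave near equal shares of decreases: 28 of 44 (63.6%) and 19 of 30 (63.3%), with medians of -0.27 and -0.23. The 37 brighter members held 29 decreases and the 37 dimmer ones 18. Spearman's rho between mean level and change was -0.25 over the 74 genes, which share the same 6 arrays. The same split was not made over all genes. Decreases there were 30.8% of all genes tested and 36.5% of the 6424 at least as bright as the dimmest member.

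**Figure D3:**
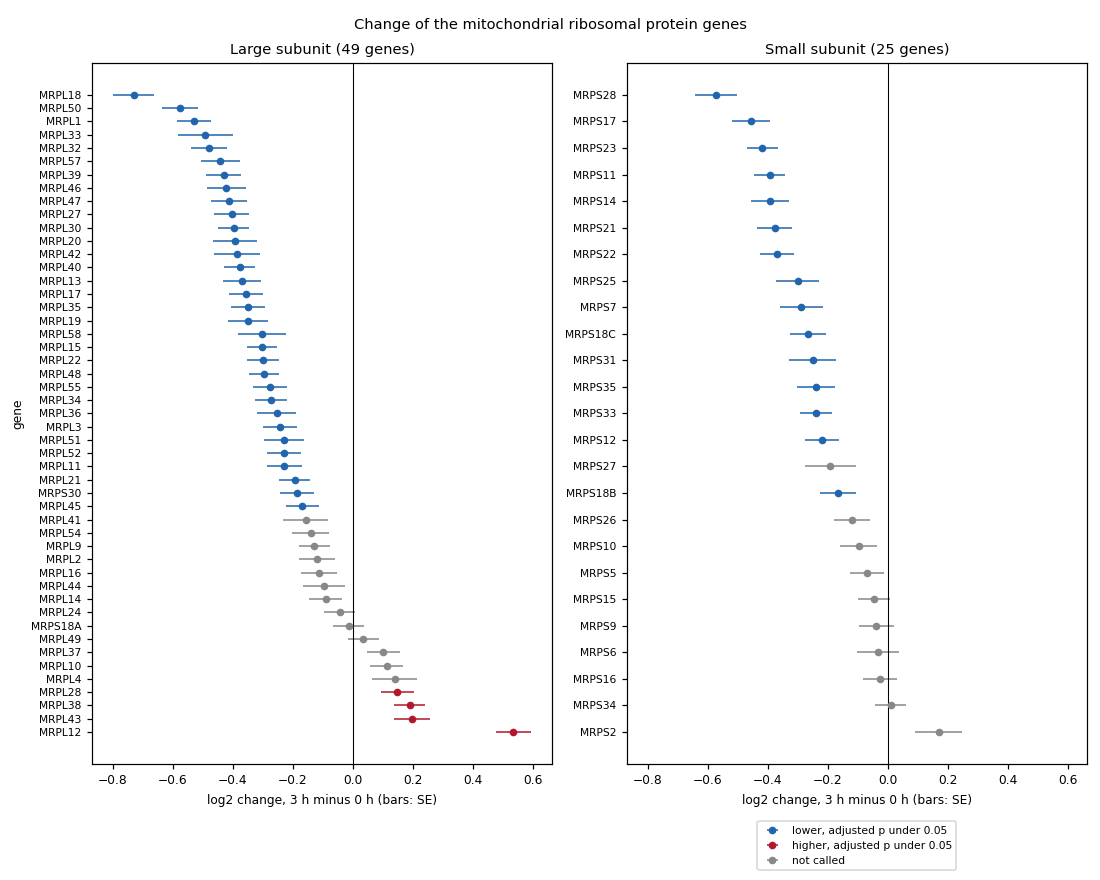
Log2 change of each gene (points, 3 h minus 0 h, horizontal axis; bars are the standard error) for 49 large-subunit and 25 small-subunit genes, blue where lower and red where higher at an adjusted p under 0.05. Decreases outnumber increases in both panels, and the 4 increases called are all in the large subunit.

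MRPL18, the uL18 protein of the central protuberance, gave the largest decrease on the brightest probe set. Its log2 value was 10.79, 10.79 and 10.96 on the 0 h arrays and 10.07, 10.20 and 10.07 on the 3 h arrays. All 3 values at 3 h lay below every 0 h value, a log2 change of -0.73 (SE 0.07, 1.66-fold, limma adjusted p = 0.000102). Its other probe sets above the floor moved less. One fell by 0.29 on the log2 scale and the other changed by -0.10 without passing the test. With all sets averaged, MRPL18 fell by 0.37 (adjusted p = 0.000293), less than MRPS28 (0.56) and MRPL1 (0.50).

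MRPL50 encodes mL50, a subunit found only in mitochondria. It read 8.69, 8.59 and 8.72 at 0 h and 8.05, 8.07 and 8.16 at 3 h. The groups were apart and the change was -0.58 (SE 0.06, adjusted p = 0.000159), measured by a single probe set above the floor. With all its probe sets averaged, the dim one included, the change was -0.18 and the call was lost (adjusted p = 0.0579).

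MRPS28, the bS1m protein of the small subunit, read 10.46, 10.45 and 10.44 at 0 h and 9.74, 9.98 and 9.92 at 3 h. The 3 h arrays were again all lower, by 0.57 in the mean (SE 0.07, adjusted p = 0.000301), and its second probe set fell by 0.54. MRPL1 forms the stalk at which deacylated tRNA leaves the ribosome. Its values were 9.56, 9.50 and 9.50 at 0 h and 8.93, 9.00 and 9.05 at 3 h, without overlap. It fell by 0.53 (SE 0.06, adjusted p = 0.000166), and its second probe set fell by 0.47.

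MRPL32 and MRPL33 encode small proteins with bacterial counterparts, and maturation of the MRPL32 protein by the m-AAA protease is a known step of ribosome assembly. MRPL33 read 11.42, 11.35 and 11.65 at 0 h and 10.86, 11.09 and 10.99 at 3 h. It had the widest spread of the 8 largest decreases (SD 0.16 at 0 h), but the groups did not overlap and the change was -0.49 (SE 0.09, adjusted p = 0.00228). MRPL32 read 9.01, 8.99 and 8.88 at 0 h and 8.49, 8.42 and 8.52 at 3 h. It too was lower on every 3 h array, by 0.48 in the mean (SE 0.06, adjusted p = 0.00032), with 1 probe set.

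MRPS17, a small-subunit protein of bacterial type (uS17m), read 9.78, 9.69 and 9.69 at 0 h and 9.23, 9.20 and 9.37 at 3 h. All its 3 h values were lower, with a change of -0.46 (SE 0.06, adjusted p = 0.000583), and each of its 4 probe sets fell. MRPL57 (mL63, found only in mitochondria) read 10.31, 10.28 and 10.21 at 0 h and 9.76, 9.93 and 9.78 at 3 h. It changed by -0.44 (SE 0.06, adjusted p = 0.000701) without overlap, and its 4 probe sets also all fell.

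The other 39 decreases were spread over functional regions of the ribosome. In the central protuberance, MRPL46 fell by 0.42, MRPL27 by 0.40, MRPL40 by 0.38 and MRPL48 by 0.30, whereas MRPL38 of the same region rose. Near the exit of the peptide tunnel, MRPL47 fell by 0.41 and MRPL22 by 0.30, while MRPL24 changed by -0.05 without passing the test. MRPL45, which links the tunnel exit to the inner membrane, fell by 0.17, and its call was lost in 9 of the 14 alternatives tried. MRPL58, related to release factors and able to free stalled peptides, fell by 0.30. In the small subunit, MRPS11 and MRPS14 each fell by 0.39, MRPS22 by 0.37 and MRPS7 by 0.29. The other probe set of MRPS7 changed by -0.14 without passing the test. MRPS12, which contributes to the decoding centre, fell by 0.22.

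MRPL12 stood apart in direction. Copies of its protein form the flexible stalk that recruits translation factors, and it has also been described as a partner of the mitochondrial RNA polymerase. It read 8.72, 8.69 and 8.65 at 0 h and 9.30, 9.15 and 9.21 at 3 h. The groups did not overlap, and the change was 0.53 (SE 0.06, 1.45-fold higher, adjusted p = 0.000192). It was called higher in all 14 alternatives. However, its second probe set, at nearly the same level, read 8.68, 8.60 and 8.68 at 0 h and 8.61, 8.58 and 8.36 at 3 h. Those values overlapped, and the change of -0.14 did not pass the test (adjusted p = 0.169). The rise therefore rests on 1 of its 2 probe sets. At the stalk base, MRPL10 was higher on every 3 h array, by 0.11 in the mean, but did not pass the test (adjusted p = 0.12), and MRPL11 fell by 0.23.

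The other increases were near the threshold or depended on the probe set. MRPL38, a subunit found only in mitochondria, read 8.04, 7.99 and 8.06 at 0 h and 8.20, 8.25 and 8.21 at 3 h. It was higher on every 3 h array, by 0.19 (SE 0.05, adjusted p = 0.0153), and its second probe set changed by 0.16 (adjusted p = 0.096). The call was lost without replicate 2 of the 0 h arrays (adjusted p = 0.0624). MRPL43 read 9.23, 9.19 and 9.18 at 0 h and 9.39, 9.48 and 9.32 at 3 h on its brightest probe set. That set rose by 0.20 (adjusted p = 0.0227), but the 3 other sets above the floor fell by 0.20, 0.33 and 0.35. One of those 3 was nearly as bright, and with all sets averaged MRPL43 changed by -0.12 without passing the test. The direction of MRPL43 was therefore not settled by these arrays, and its call was also lost when replicate 2 or replicate 3 of the 0 h group, or replicate 2 of the 3 h group, was left out. MRPL28 read 10.58, 10.61 and 10.58 at 0 h and 10.78, 10.76 and 10.67 at 3 h. Its groups were apart by 0.15 (adjusted p = 0.048), a call that held in 5 of the 14 alternatives. Of the members called higher, MRPL28 and MRPL43 were the ones lost when arrays were centred on their medians.

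The genes nearest to no change included members of both subunits. MRPS34, a small-subunit protein found only in mitochondria, read 10.38, 10.38 and 10.33 at 0 h and 10.41, 10.38 and 10.33 at 3 h. MRPS16 (bS16m) read 9.65, 9.64 and 9.58 at 0 h and 9.63, 9.64 and 9.53 at 3 h. The groups overlapped for both, with changes of 0.01 (SE 0.05, adjusted p = 0.898) and -0.03 (SE 0.06, adjusted p = 0.732). The third such gene on its brightest probe set was MRPS18A, given next with its paralogs.

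The 3 MRPS18 paralogs derive from the same bacterial protein and occupy different places. MRPS18C (bS18m) holds the bacterial site in the small subunit. It read 10.60, 10.50 and 10.43 at 0 h and 10.22, 10.23 and 10.28 at 3 h, without overlap, and fell by 0.27 (SE 0.06, adjusted p = 0.00624). All its 3 probe sets fell. MRPS18B (mS40), elsewhere in the small subunit, read 9.99, 10.07 and 10.15 at 0 h and 9.95, 9.89 and 9.89 at 3 h. The groups were apart, by as little as replicate 1 of each, and its fall of 0.17 (SE 0.06, adjusted p = 0.046) was the smallest called. That call was lost in 8 of 13 alternatives. MRPS18A (mL66), in the large subunit, read 8.84, 8.80 and 8.82 at 0 h and 8.84, 8.77 and 8.80 at 3 h. Its values overlapped and the change was -0.01 (SE 0.05, adjusted p = 0.832). However, its dimmer probe set fell by 0.26 without overlap, and was called lower when each set was tested (limma adjusted p = 0.0153). With all sets averaged, MRPS18A was called lower too. Differences between the changes of the paralogs were not tested.

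The pattern was also seen when every probe set was tested on its own. The members had 164 probe sets, of which 145 lay above the floor. Of those, 90 were called lower (62.1%) and 7 higher (4.83%), against 25.8% and 25.6% of all 29576 probe sets tested. Sets of 1 gene share its transcripts and are not replicates. Of 41 genes with several sets above the floor, 34 had every set change in the same direction, and 18 had every set called lower. MRPL52 did so with 5 sets and MRPL57, MRPS11, MRPS17 and MRPS21 with 4. MRPL45 is among the 34, although its dimmest set changed by only -0.003 and was not called. Its other sets held identical values on every array, and both are counted among the 90 called lower. The same counts were not made over all genes with several sets, so no background is given for them. In 7 genes at least 1 set opposed the brightest, and in 3 of them (MRPL43, MRPS12 and MRPS27) an opposing set was itself called. MRPS27, a small-subunit protein with pentatricopeptide repeats, changed by -0.19 and -0.13 on its brighter sets, neither of which was called. Its dimmer sets rose by 0.41 and 0.48. For MRPS12 a dimmer set rose by 0.24. The position of the probe sets along the transcripts was not analysed here. The brightest set carried a mark for probes shared between transcripts (suffix _s or _x) in 15 of the 47 genes called lower. With such sets left out, 41 of the 47 were still called lower. MRPL20 and MRPS35 changed by 0.12 and 0.11, neither of which passed the test. MRPL45 and MRPS7 kept their sign but lost the call, and MRPL34 and MRPS18B had no set left to test.

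**Figure D4:**
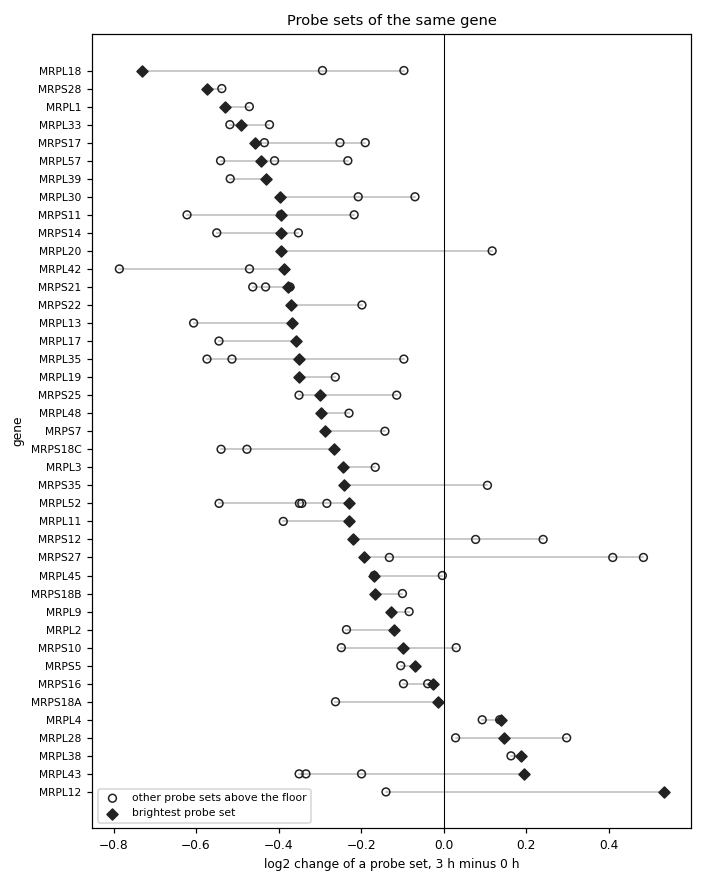
Log2 change, 3 h minus 0 h (horizontal axis), of every probe set above the floor for the 41 genes with several such sets, with the brightest set filled and the others open. Most genes have all their points left of 0, while 7 have points on both sides (MRPL12, MRPL20, MRPL43, MRPS10, MRPS12, MRPS27 and MRPS35).

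Promoter sequences from RefSeq (GRCh38.p14, 250 bases before to 50 bases after the start of the gene) matched 67 of the 74 members. They were searched on both strands for letters bound by factors known from housekeeping and mitochondrial genes. The YY1 letters AAGATGGC occurred in 19 of 67 members (28.4%) and in 5.17% of the promoters of all genes tested with an entry. Of its 20 matches, 13 began within 30 bases of the start, and 14 ran in the direction of the gene after the start. These letters hold an ATG, so a match there can overlap a start codon, and a match is not evidence of binding. They are shown for the 6 members with the largest decreases among those called lower whose match lies after the start in the direction of the gene, 30 bases each on the strand of the gene, with the match in capitals. MRPL32 and MRPL47, with larger decreases than some of these, have their match upstream on the other strand and are not shown here for YY1.
MRPL50 (chr9:101398577-101398606, minus strand): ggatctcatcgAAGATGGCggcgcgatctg
MRPL46 (chr15:88467362-88467391, minus strand): tgggagaacgaAAGATGGCggcgcccgtaa
MRPL20 (chr1:1407260-1407289, minus strand): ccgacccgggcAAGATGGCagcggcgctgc
MRPL42 (chr12:93467511-93467540, plus strand): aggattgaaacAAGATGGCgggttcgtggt
MRPL22 (chr5:154941093-154941122, plus strand): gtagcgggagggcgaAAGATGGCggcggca
MRPS7 (chr17:75261887-75261916, plus strand): cgtggccagccAAGATGGCtgcccccgcag

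Members with the YY1 letters had a median log2 change of -0.23 and those without them -0.24. The letters occurred in 15 of 42 members called lower and in 4 of the other 25. Of all 518 genes with these letters, 35.5% were called lower. Of all 12221 genes tested, which include genes without a promoter entry, 30.8% were called lower. Whether the letters go with the decrease was not tested.

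The ETS letters CCGGAAG, the core bound by GABP, occurred in 28 of 67 members (41.8%) and in 18.4% of all promoters. Members with and without them both had a median of -0.24, while over all genes the medians were -0.10 with and -0.03 without. Of all 1844 genes with the ETS letters, 39.6% were called lower. The NRF1 letters GCGCATGC occurred in 6 members (8.96%, against 5.25% of all promoters), and those 6 were called lower, where 42 of the 67 members with a promoter (62.7%) were. Of all 526 genes with these letters, 42.0% were called lower. The median was -0.28 in members with them and -0.24 in those without. Shares for other letters lay nearer to, or below, those of all promoters: SP1 (GGGCGG) 58.2% against 69.1%, NF-Y (CCAAT) 29.9% against 36.3%, E-box (CACGTG) 10.4% against 9.97% and the TATA box (TATAAA) 2.99% against 6.27%. Members with SP1 letters had a median of -0.17 and those without -0.30. The same medians were -0.19 and -0.25 for NF-Y, -0.17 and -0.24 for the E-box, and -0.09 and -0.24 for the TATA box, which only 2 members held. None of these differences was tested. The 120 bases before the start are shown for the 2 members with the largest decreases that hold ETS letters there, the same for NRF1, and the members with the largest decrease and increase on the brightest probe set. Capitals mark ETS in MRPL33 and MRPS23, NRF1 in MRPL32 and MRPL17, where 2 matches on opposite strands overlap, and NF-Y in MRPL18. For MRPL12 no capitals are set, because the YY1, ETS and NRF1 letters are not in its window.
MRPL33 (chr2:27771599-27771718, plus strand): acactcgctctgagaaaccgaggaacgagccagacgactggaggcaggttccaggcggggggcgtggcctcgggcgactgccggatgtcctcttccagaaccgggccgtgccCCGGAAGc
MRPS23 (chr17:57850045-57850164, minus strand): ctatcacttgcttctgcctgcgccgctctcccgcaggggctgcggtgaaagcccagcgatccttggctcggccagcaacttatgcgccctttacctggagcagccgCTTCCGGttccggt
MRPL32 (chr7:42932256-42932375, plus strand): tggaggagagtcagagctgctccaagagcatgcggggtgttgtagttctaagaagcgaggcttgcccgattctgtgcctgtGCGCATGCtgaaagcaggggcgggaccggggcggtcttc
MRPL17 (chr11:6683341-6683460, minus strand): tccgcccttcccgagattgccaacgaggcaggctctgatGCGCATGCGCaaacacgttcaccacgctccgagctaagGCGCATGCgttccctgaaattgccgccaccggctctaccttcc
MRPL18 (chr6:159789692-159789811, plus strand): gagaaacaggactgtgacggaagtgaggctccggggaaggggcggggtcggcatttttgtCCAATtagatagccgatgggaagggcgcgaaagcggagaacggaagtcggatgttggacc
MRPL12 (chr17:81703247-81703366, plus strand): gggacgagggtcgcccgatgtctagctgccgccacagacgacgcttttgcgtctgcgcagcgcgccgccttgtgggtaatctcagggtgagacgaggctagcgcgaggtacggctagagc

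Base composition of the promoters was set beside the changes. The median GC content of the promoter was 60.3% in the members and 65% in all genes tested, 59.0% in the 42 members called lower and 65.3% in the 4 called higher. Those 4 include MRPL43, whose direction was not settled. Over all 10021 genes with an entry, Spearman's rho between GC content and change was 0.16, and over the 67 members it was 0.22. Within the 42 members called lower rho was -0.095, and within the 21 not called it was -0.088. These points share the 6 arrays. All promoters were split into 5 bins of GC content. From the lowest bin to the highest, the members' median change was -0.27, -0.29, -0.10, -0.29 and -0.09, over 18, 23, 11, 8 and 7 members. The median of all genes in the same bins was -0.09, -0.08, -0.07, -0.03 and 0.05, above that of the members in every bin. The part of base composition in the change was not tested further.

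Several members share a bidirectional start region with another gene. Of 17 tested neighbours outside the family that start head to head within 1000 bases, 5 fell (29.4%), 4 rose (23.5%) and 8 did not pass the test, shares near the 30.8% and 20.6% of all genes. Their median change was -0.10, against -0.27 for the members they face. MRPL46 and MRPS11 face each other with 320 bases between their starts, and fell by 0.42 and 0.39.

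Other genes of the mitochondrial translation system were described by lists. Of 4 tested ribosomal subunits without an MRP symbol, 2 fell (50%) and 0 rose in limma (0 also at an unadjusted p under 0.05). Among all genes tested, 30.8% fell and 20.6% rose. DAP3, a GTP-binding protein of the small subunit, read 10.24, 10.18 and 10.20 at 0 h and 9.86, 9.89 and 9.90 at 3 h, lower on every array (log2 change -0.32, adjusted p = 0.00106). CHCHD1 fell by 0.20. KGD4, the former MRPS36, read 9.71, 9.61 and 9.72 at 0 h and 9.14, 9.21 and 9.16 at 3 h. It fell by 0.51 (adjusted p = 0.000194), although it is not a ribosomal protein.

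Of 15 translation factors, 9 fell (60%) and 0 rose in limma (1 at an unadjusted p under 0.05), with a median of -0.29. Among all genes tested, 30.8% fell and 20.6% rose. The elongation factor gene GFM1, which drives translocation, read 8.68, 8.77 and 8.70 at 0 h and 8.07, 8.25 and 8.24 at 3 h, a fall of 0.52 (adjusted p = 0.000343). LRPPRC and SLIRP, which together bind and stabilise mitochondrial mRNA, fell by 0.51 and 0.40. The initiation factor genes MTIF3 and MTIF2 fell by 0.41 and 0.29, and the recycling factor gene MRRF fell by 0.39. TUFM, the elongation factor that delivers tRNA, read 10.86, 10.83 and 10.80 at 0 h and 10.88, 10.88 and 10.85 at 3 h. Its groups overlapped and the change of 0.04 did not pass the test (adjusted p = 0.551).

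Of 23 assembly and rRNA modification factors, 9 fell (39.1%) and 1 rose, with a median of -0.12. That share of decreases is near the 30.8% of all genes and the 36.5% of genes as bright as the ribosomal protein genes. METTL15, a methyltransferase of the small-subunit rRNA, fell by 0.62, MTERF3 by 0.54, TRMT61B by 0.48 and RPUSD4 by 0.30. DHX30, an RNA helicase, rose by 0.33. Of 5 genes for transcription of mitochondrial DNA, 4 fell (80%) and 1 rose (20%, as against 20.6% of all genes), with a median of -0.37. TEFM, the elongation factor of that polymerase, fell by 0.56, MTERF1 by 0.43 and TFB2M by 0.37, while the polymerase gene POLRMT rose by 0.19. TFAM, which packages mitochondrial DNA, read 8.08, 7.77 and 7.98 at 0 h and 7.60, 7.64 and 7.81 at 3 h. It fell by 0.26 (adjusted p = 0.0436), though its groups overlapped.

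Of 8 nuclear regulators of mitochondrial genes, 2 fell (25%) and 4 rose (50%), against 30.8% and 20.6% of all genes tested. The median of the 8 was 0.10. PPRC1, a coactivator of the PGC-1 family, rose by 0.71, MYC by 0.50, PPARGC1B by 0.39 with overlapping groups, and ESRRA by 0.22. GABPA and NRF1, which encode the proteins associated with the ETS and NRF1 letters above, fell by 0.42 and 0.20. YY1 changed by -0.09 without passing the test (adjusted p = 0.277). Levels of mRNA do not give the activity of these factors.

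**Figure D5:**
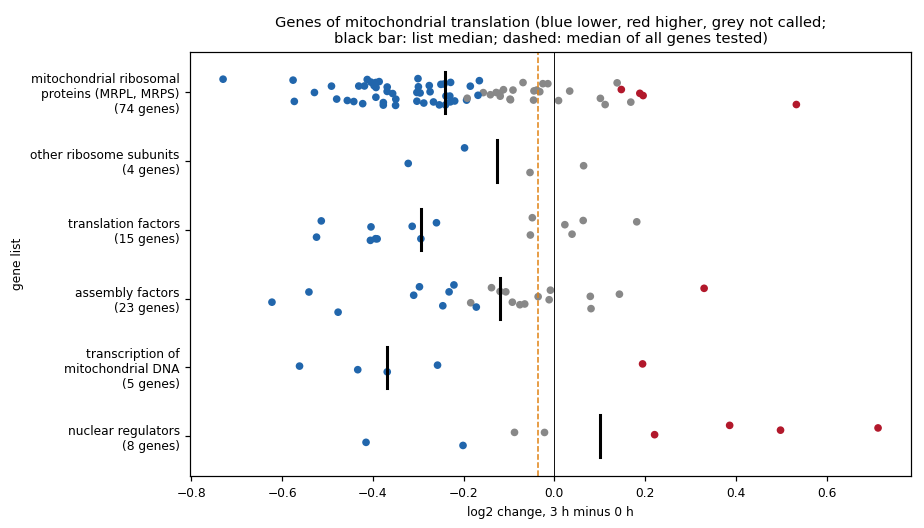
Log2 change, 3 h minus 0 h (horizontal axis), of each tested gene (points; blue lower, red higher, grey not called) in the family and 5 related lists, with list medians as black bars and the median of all genes dashed. Medians lie between -0.37 and -0.12 in all lists but the regulators, at 0.10.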

How the data were processed

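Total RNA of 6 ARPE-19 samples was amplified and biotin-labelled from its 3′ ends, and each sample was read on 1 Affymetrix array, per the labels' protocols. The authors deposited log2 values for 49372 probe sets. The scale was read from the values, whose array medians ran from 5.30 to 5.34. MAS5 and RMA are named, per the submitters' processing notes, without version or role. Normalization that gives all arrays nearly equal distributions hides a change in total RNA. Genes were named from platform annotation, using the 44988 probe sets with 1 symbol. The brightest probe set of a gene (mean of 6 arrays) stood for it, above a floor at the 40th percentile (log2 4.64). The test of 3 h against 0 h was limma 3.58.1 (lmFit, then eBayes; R 4.3.3), adjusted by Benjamini-Hochberg over 12221 genes, threshold 0.05. A second fit took each probe set. The step was tested on simulated data. Precision is limited by the 3 arrays per group.

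The members, lists, motifs and rules were chosen with earlier results of these data known. Values per array are given for the 8 largest decreases, all called increases (8 at most), the 3 members nearest 0 and the MRPS18 paralogs. In each related list, up to 6 called genes with the smallest p could be named, and TUFM, GFM1, TFAM, DAP3 and KGD4 in any case. The design text names no covariate, so replicate numbers were not used as pairs. Correlations between same-numbered arrays, and a fit with replicate number as a block, are given below. Promoters are from RefSeq tables. Alternatives covered normalization, the floor, the choice of probe set, variance moderation, a replicate block and leaving out each array. Figures were drawn with matplotlib 3.10.9.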

Additional observations from a re-analysis of the deposited data

How the results depend on the processing

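Over 8 alternatives in processing, 41 to 51 members were called lower (47 reported) and 2 to 5 higher (4 reported). The members' median log2 change ran from -0.28 to -0.20. Of all genes, 2964 to 4311 were called lower (3759 reported) and 2184 to 2902 higher (2514 reported), with 10553 to 18132 tested. Without sets marked _s or _x, 71 members were tested. Median centring gave 2 members higher and 50 lower, with 4311 of all genes lower. With 1 array left out, 42 to 46 members were called lower and 1 to 5 higher, with a median of -0.26 to -0.23. Of all genes, 3114 to 3627 were then called lower and 2081 to 2525 higher. The count of 1 came from leaving out replicate 2 of the 0 h group. Of the 47 genes called lower, 35 were called so in every alternative in which they were tested, and 44 kept their sign throughout. MRPL45, MRPS18B, MRPS30, MRPS31, MRPL51 and MRPS35 lost the call in 3 or more. With the replicate number as a block, 3 members were called higher and 45 lower, and 2336 and 3502 of all genes. Same-numbered arrays had deviation correlations of -0.04, -0.02 and -0.19, and differently numbered arrays had -0.14 to 0.17. With 3 arrays per group, such values cannot show whether the samples were handled in pairs.

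Signs that turned were those of genes near 0 or with discordant probe sets. Under median centring, MRPL49 changed by -0.0036 and MRPS34 by -0.028. With 1 array left out, MRPS34 ran from -0.0082 to 0.029, MRPS18A from -0.033 to 0.0031, MRPS6 from -0.098 to 0.0025 and MRPS16 from -0.049 to 0.010. With all probe sets averaged, MRPL43 changed by -0.12, MRPS12 by 0.014, MRPS15 by 0.062 and MRPS27 by 0.14, the last of them called. Without sets marked _s or _x, MRPL20 changed by 0.12 and MRPS35 by 0.11. The cause of these turns was not tested beyond the choice of probe set that defines them. Genes with a single probe set, 28 of 74, have no such check.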
